A study of Homo sapiens with 6 samples.

Results

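Serum amyloid A and complement genes were followed in 786-O, a long-established line of clear cell renal carcinoma cells, with and without targeting of PHF8, a histone demethylase that removes repressive methyl marks. The 9 genes were picked by symbol from the 54261 symbols of the count table, by their known function: the acute phase genes SAA1 and SAA2, the complement components C3, C1R, C1S and CFB, and the membrane regulators CD46, CD55 and CD59. All 9 had a row, and 7 of them had enough reads to be among the 14398 genes tested. The cells were transfected with control guide RNA (labelled PHF8 wildtype, 3 libraries) or with PHF8 guide RNA (labelled PHF8 knockout, 3 libraries) by CRISPR-Cas9, and all were grown in RPMI-1640 medium with fetal bovine serum. Whether the PHF8-targeted cells were pooled or 1 clone, and whether each library had its own culture, is not stated in the labels. The p-values therefore measure only how far these libraries vary, which may be technical variation.

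Complement is a cascade of plasma proteins in which a recognition complex, with the proteases encoded by C1R and C1S, or a feedback loop run by factor B (CFB) leads to cleavage of C3, the component on which all routes meet. Nucleated cells protect themselves with membrane proteins that break the loop (CD46 and CD55) or block the pore that ends the cascade (CD59). Serum amyloid A proteins, made mainly in the liver in an acute phase response and to a lesser extent elsewhere, are induced by interleukin-1, interleukin-6 and NF-kB signalling, as are C3 and CFB.

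SAA1 and SAA2 lie on chromosome 11 at 18266260-18269977 (plus strand) and 18239223-18248668 (minus strand) in GENCODE on GRCh38, 17591 bases apart, and both have 4 exons. Because they gave unlike results, the stretch of coding sequence where they differ most is shown, bases 217 to 306 of 366 in the canonical GENCODE transcripts, with the bases that differ in capitals:

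SAA1: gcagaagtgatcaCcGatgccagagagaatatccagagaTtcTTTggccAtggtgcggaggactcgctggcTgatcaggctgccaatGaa
SAA2: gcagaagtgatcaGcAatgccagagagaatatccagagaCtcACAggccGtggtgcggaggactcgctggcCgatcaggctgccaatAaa

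This stretch holds 9 of the 11 differences between the coding sequences, which were 97.0% identical. Of the 50-base windows of the SAA1 transcript, 40.9% also occurred in an SAA2 transcript, and of the 100-base windows 20.8%, so the assignment of part of the reads to either gene is uncertain. The read length is not given in the sources used here, nor is the handling of reads that match several genes.

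Libraries held 21533615 to 29095133 counted reads. PHF8 had 833, 876 and 881 reads in control libraries 1, 2 and 3 and 259, 167 and 348 in the knockout libraries, a log2 fold change of -1.78 (SE 0.21). Its p-value in edgeR's quasi-likelihood test, after adjustment by Benjamini-Hochberg, was 1.19e-04, and all adjusted p-values below come from this test unless another is named. Differences between the groups were common: an adjusted p under 0.05 was reached by 59.7% of the tested genes, split into 28.9% that rose and 30.8% that fell with the PHF8 guide, and the groups did not overlap in 66.8%. Against this, 3 of the 7 tested members were higher (SAA1, C3 and CD55), 1 was lower (CD59) and C1R, C1S and CD46 did not pass. The groups did not overlap in 6 of the 9. SAA1 and C3 also passed the 2-fold criterion of the series, which 9.2% of tested genes met as higher. The 7 tested members had a median log2 fold change of 0.41, beside -0.01 over all tested genes.

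**Figure D1:**
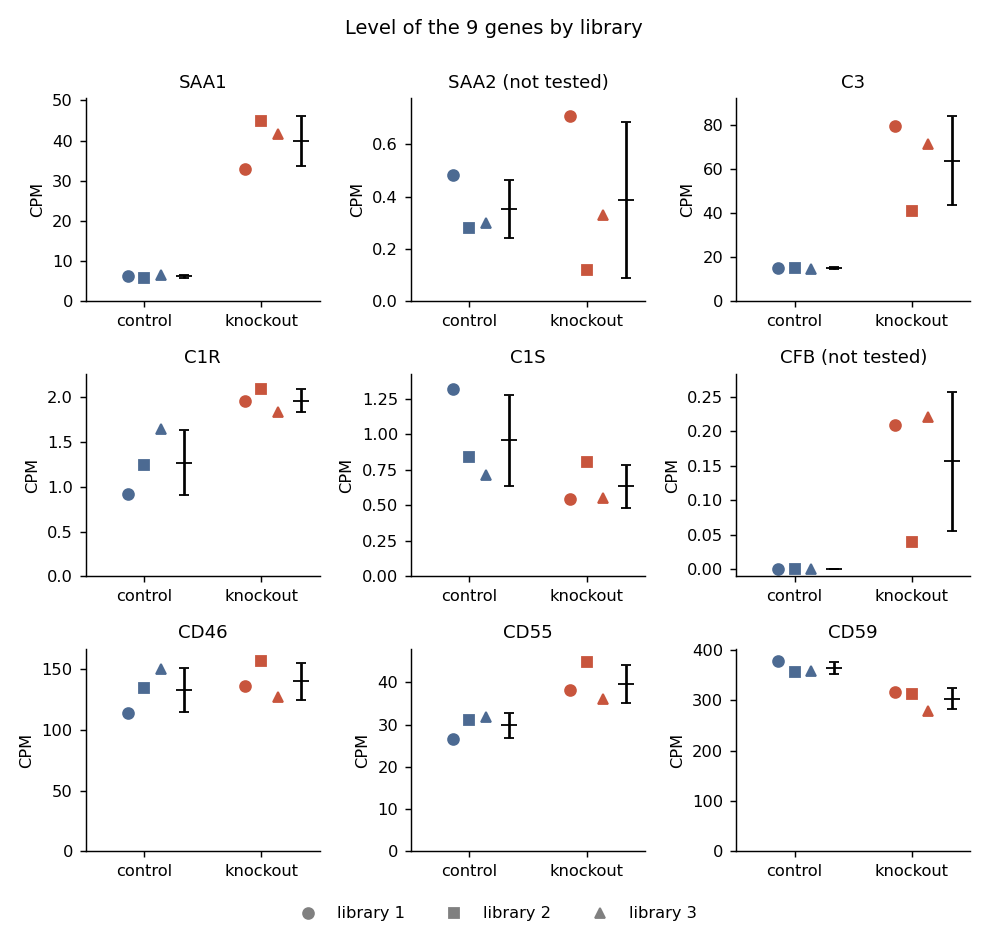
Level of each gene in every library, in CPM (TMM-scaled reads per 1e+06 reads), on an axis with 0 shown; the cross-bar beside each group is the mean and the whiskers its SD (n = 3). SAA1 and C3 lie far above control in all 3 knockout libraries, CD59 lies below in all 3, and SAA2, C1S and CD46 overlap.

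SAA1, a secreted apolipoprotein of the acute phase, showed the largest fold change of the 7 tested members. It had 143, 145 and 175 reads in control libraries 1, 2 and 3, or 6.27, 5.80 and 6.54 CPM, and 790, 1115 and 1132 reads in the knockout libraries, or 32.9, 45.0 and 41.6 CPM. The groups lay far apart, and the control libraries lay close together. The mean rose from 6.21 ± 0.37 to 39.8 ± 6.24 CPM (n = 3 per group, SD), a log2 fold change of 2.68 (SE 0.15; adjusted p = 5.62e-06).

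SAA2, the paralog that is induced with SAA1 in the liver, had few counted reads in both groups. It had 11, 7 and 8 reads in control libraries 1, 2 and 3 and 17, 3 and 9 in the knockout libraries. The groups overlapped, with the highest and the lowest count both in knockout cells, and the gene was under the filter on low counts. Without that filter its log2 fold change was 0.11 (SE 0.52; adjusted p = 0.89). SAA1 took 92.9%, 95.4% and 95.6% of the reads of the pair in the control libraries, against 97.9%, 99.7% and 99.2% in the knockout libraries. The groups did not overlap in this share, but the exact two-sided permutation test over libraries gave p = 0.10, the smallest that 3 against 3 libraries allow. This share was 1 of 3 chosen after the values were seen, and its adjusted p was 0.10 over the 3. All 3 shares lay without overlap, which alone sets each p to 0.10 before and after adjustment. These p-values therefore only restate the lack of overlap. With SAA1, SAA2 and the read-through gene SAA2-SAA4 summed, the log2 fold change was 2.62 (SE 0.15; adjusted p = 5.62e-06). SAA4, the constitutive member of the family, and SAA2-SAA4 had 0 reads in all 6 libraries.

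C3, the central component (chromosome 19, 6677704-6730562, minus strand, 41 exons), was the other member with a large rise. It had 349, 374 and 387 reads in control libraries 1, 2 and 3, or 15.3, 15.0 and 14.5 CPM. The knockout libraries had 1906, 1012 and 1939 reads, or 79.4, 40.8 and 71.3 CPM. All 3 lay far above control, but knockout library 2 held a little over 50% of the level of the other two, whereas for SAA1 library 2 was the highest. The mean rose from 14.9 ± 0.43 to 63.8 ± 20.3 CPM (n = 3 per group, SD), a log2 fold change of 2.10 (SE 0.22; adjusted p = 7.69e-05), and without knockout library 2 it was 2.34 (SE 0.09; adjusted p = 3.31e-07; 7.97e-23 to 7.89e-04 over all alternatives).

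CFB encodes factor B, the protease of the feedback loop, and lies on chromosome 6 at 31945650-31952086 (plus strand), where its annotated start overlaps the end of C2. It had 0 reads in each control library, and the knockout libraries had 5, 1 and 6 reads. The counts were too low for the test. Against the 3 reads that a count of 0 allows over the control group, the 12 reads of the knockout group amount to a 3.92-fold higher level. This figure covers counting error in the control group only. It takes the 12 knockout reads as exact, so it is not a lower bound on the difference. Without the filter it passed in edgeR (adjusted p = 0.010), as it did in DESeq2 (adjusted p = 0.044). C2, the factor B homologue of the classical route, had 0 reads in every library, so counting the pair together changed nothing.

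C1R and C1S, whose products form the protease pair of the C1 complex, are neighbours on chromosome 12 (7080214-7092540, minus strand, and 6988259-7071032, plus strand), 9181 bases apart and transcribed towards each other. C1R had 21, 31 and 44 reads in control libraries 1, 2 and 3 and 47, 52 and 50 in the knockout libraries. The knockout libraries lay just above control, at 1.27 ± 0.36 against 1.96 ± 0.13 CPM (n = 3 per group, SD), with a log2 fold change of 0.62 (SE 0.25; 95% interval 0.13 to 1.11; adjusted p = 0.057). The call depended on the setting: C1R passed with a stricter filter (adjusted p = 0.045) and with control library 3 left out (adjusted p = 0.030), and its adjusted p ran from 0.030 to 0.43 over all alternatives. C1RL, the C1R-like protease gene at 7089587-7109238 (minus strand), overlaps C1R on the same strand. Reads in the shared stretch may have gone uncounted for both genes. C1RL did not pass, with a log2 fold change of -0.21 (adjusted p = 0.25).

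C1S went the other way in its mean, without passing the test. It had 30, 21 and 19 reads in control libraries 1, 2 and 3 and 13, 20 and 15 in the knockout libraries. The groups overlapped, and control library 1 was the highest of the 6. The log2 fold change was -0.58 (SE 0.34; 95% interval -1.24 to 0.08; adjusted p = 0.16). Of the reads of the pair, C1R took 41.2%, 59.6% and 69.8% in the control libraries, against 78.3%, 72.2% and 76.9% in the knockout libraries, again without overlap and at the smallest possible exact permutation p of 0.10 (adjusted p = 0.10 over the 3 shares). The counts are low: in control library 1 the exact 95% binomial interval of this share was 27.6% to 55.8%, which covers counting error only.

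**Figure D2:**
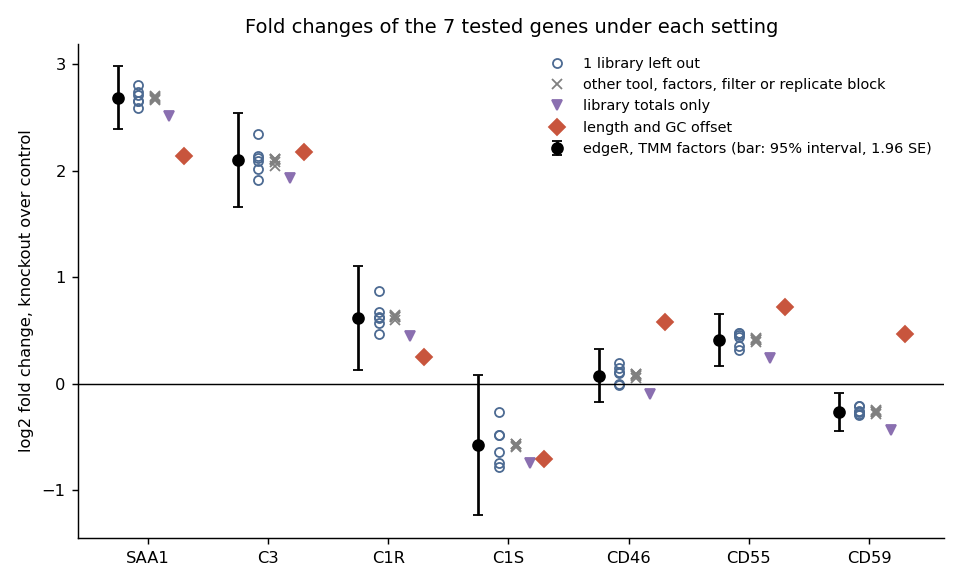
Log2 fold change of the 7 tested genes (knockout over control) under each setting; black points carry a 95% interval, and other symbols are alternatives. SAA1 and C3 stay near 2 or above under every setting, while CD46, CD55 and CD59 shift upward with the offset for length and GC content, CD59 from -0.27 to 0.46.

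The membrane regulators changed little in comparison. CD59, a GPI-anchored inhibitor of the terminal pore (chromosome 11, 33703010-33736479, minus strand), was the most abundant member by CPM in every library. Its levels were 378, 355 and 358 CPM in control libraries 1, 2 and 3 and 316, 312 and 278 CPM in the knockout libraries, all 3 below control. The mean fell from 363 ± 12.6 to 302 ± 20.8 CPM (n = 3 per group, SD), with a log2 fold change of -0.27 (SE 0.09; adjusted p = 0.028). Leaving out control library 1, 2 or 3 ended the call, at adjusted p-values of 0.12, 0.11 and 0.10, as did leaving out knockout library 3, at 0.11; the range over all alternatives was 0.0029 to 0.12.

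CD55, or decay-accelerating factor, which dismantles the C3-cleaving enzymes and is also GPI-anchored (chromosome 1, 207321519-207386804, plus strand), was modestly higher. Its levels were 26.5, 31.0 and 31.8 CPM in control libraries 1, 2 and 3 and 38.1, 44.8 and 35.9 CPM in the knockout libraries. The groups did not overlap, though the gap between them was narrower than the range of the knockout libraries. The log2 fold change was 0.41 (SE 0.13; adjusted p = 0.019), a call that ended when control library 1 was left out (adjusted p = 0.055) and with library totals in place of scaling factors (log2 fold change 0.24; adjusted p = 0.14; 4.35e-05 to 0.14 over all alternatives).

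CD46, a transmembrane cofactor for the cleavage of deposited C3b (chromosome 1, 207752037-207795513, plus strand), overlapped between the groups. Its levels were 114, 135 and 150 CPM in control libraries 1, 2 and 3 and 136, 157 and 127 CPM in the knockout libraries. Control library 1 was the lowest and knockout library 2 the highest, and the log2 fold change was 0.07 (SE 0.13; 95% interval -0.17 to 0.32; adjusted p = 0.63). The estimate for CD55, 0.41, lies above this interval, but whether the genes differ in their change was not tested. CD55 made up 6.56%, 8.04% and 8.17% of the reads of CD55 and CD59 in the control libraries, against 10.8%, 12.5% and 11.4% in the knockout libraries. There was no overlap, at the smallest possible exact permutation p of 0.10 (adjusted p = 0.10 over the 3 shares). With the offset for length and GC content, the log2 fold changes of CD55 and CD59 were 0.72 and 0.46, beside 0.41 and -0.27 without it.

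Transcript length and GC content moved with these small differences. Over all tested genes with both values, the 4 bins of GC content from lowest to highest had median log2 fold changes of -0.63, -0.20, 0.20 and 0.43, and the 4 bins of length from shortest to longest 0.33, 0.15, -0.19 and -0.59. CD46 and CD55, with 38.2% and 39.2% GC in the canonical transcript, fell in the lowest bin of GC content, and CD59, with 7563 bases, in the longest. With an offset that removes both trends per library, CD59 turned from lower to higher, at 0.46 (SE 0.12; adjusted p = 0.0077). CD46 then passed as higher, at 0.58 (SE 0.07; adjusted p = 1.15e-04; 1.15e-04 to 0.995 over all alternatives), and CD55 lay at 0.72 (SE 0.08). The direction of CD59 changed with this setting alone of the 13 alternatives, while CD46 kept its direction in 10 of 13 and lay at -0.09 with library totals only. SAA1, with 518 bases one of the genes in the shortest bin, lay at 2.13 (SE 0.14; adjusted p = 3.41e-06) with the offset, and C3, in the longest bin and the highest bin of GC content, at 2.17 (SE 0.14; adjusted p = 3.13e-06). The part of length and GC content in the members' differences was not tested beyond this offset.

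Compared per length, as RPKM (CPM per kilobase of the exons of all annotated transcripts), the order of the members differed between the groups. In control cells CD59 was highest at 34.4 ± 1.19 RPKM, followed by CD46 at 8.57 ± 1.18, SAA1 at 5.84 ± 0.35, CD55 at 2.90 ± 0.28 and C3 at 1.29 ± 0.04 RPKM (n = 3 per group, SD), and no neighbours among these 5 overlapped. C1R, SAA2 and C1S followed at 0.22, 0.16 and 0.12 RPKM, with overlap between neighbours. In knockout cells SAA1 stood first at 37.5 ± 5.88 RPKM, above CD59 at 28.6 ± 1.97 RPKM in every library, and C3 at 5.51 ± 1.75 RPKM overlapped CD55 at 3.86 ± 0.45 RPKM (n = 3 per group, SD). Per length of the canonical transcript, a measure added after seeing the data, SAA1 was again first in knockout cells and CD59 first in control cells, while SAA2 passed C1R in control cells, and in knockout cells CD46 passed CD59 and CD55 passed C3.

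**Figure D3:**
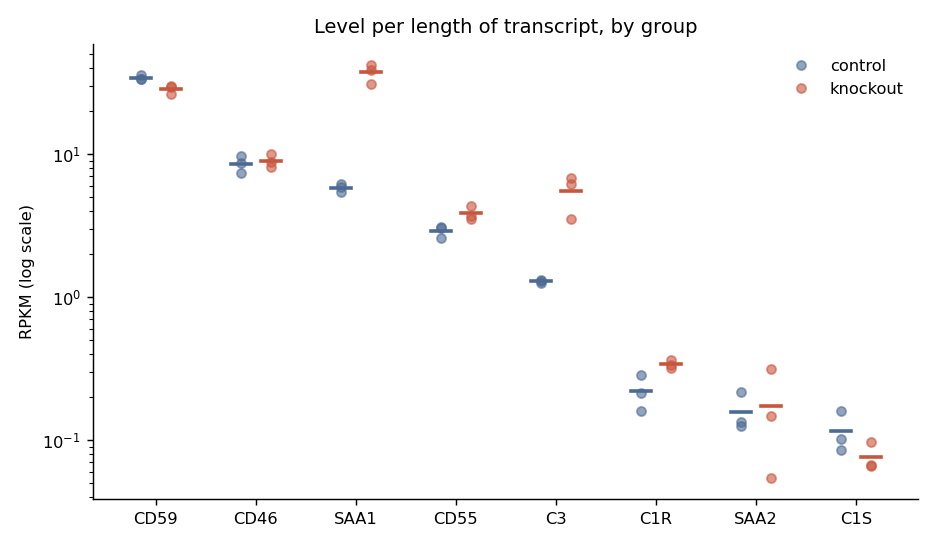
Level per length (RPKM, log scale) of 8 of the genes in control and knockout libraries; points are libraries and lines are means of 3, and CFB is left out because its control libraries are at 0. SAA1 lies below CD59 and CD46 in control cells (5.84) and above both in knockout cells (37.5).

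The reference table of RefSeq promoters (GRCh38.p14) held CFB, C1R, CD46, CD55 and CD59, and not SAA1, SAA2, C3 or C1S. The 250 bases before each annotated start were searched on both strands for an NF-kB type motif (GGGNNTTTCC, present in 1.73% of all 35116 windows of this length), a C/EBP type motif (TTNNGNAA, 33.2%) and a STAT type motif (TTCNNNGAA, a palindrome counted once, 6.57%). None of the 10 windows of these 5 genes held the NF-kB letters. The STAT letters occurred near 1 start each of C1R and CFB and, as 1 site shared by 2 overlapping windows, near CD59. The C/EBP letters occurred near both starts of C1R and near 1 start of CD59, and CD46 and CD55 had none of the 3 motifs. The STAT type sites, found in 3 of the 5 genes, are shown with 10 bases on each side and the motif in capitals:

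CFB: cgcttggatgTTCCGGGAAagtgatgtgg
C1R: gccagtcctaTTCCTGGAAggggagggga
CD59: ccacccggccTTCTCAGAAcctgggccag

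The stretches lie at chr6:31945993-31946021 (plus strand, motif at -92 to -84 from the RefSeq start), chr12:7091961-7091989 (minus strand, motif at -86 to -78) and chr11:33736589-33736617 (minus strand, motif at -128 to -120 from the nearer start).

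Most other components of the cascade had few or no counted reads. Of 24 further component genes 10 had no read in any library, among them C1QA, C1QB and C1QC of the recognition complex, C4B and C2. A count of 0 over a group allows up to 0.040 CPM in control and 0.039 CPM in knockout cells. Another 11 were under the filter. Among these was C4A, a close paralog of C4B, with 0 to 5 reads a library. The pair can share reads, so the bound for a count of 0 may not hold for C4B. Of the 3 tested, C5, the start of the terminal pathway, fell from 5.62 ± 0.58 to 2.44 ± 0.17 CPM (n = 3 per group, SD), with a log2 fold change of -1.20 (adjusted p = 3.07e-04). After the offset for length and GC, C5 lay at -0.41 (adjusted p = 0.037; 1.07e-06 to 0.037 over all alternatives). C8G and MBL2 were higher, but met the filter only through the knockout libraries, and with the offset 1 of the 3 genes was called higher and 1 lower.

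Among 17 soluble and other regulators, 3 of 6 tested rose and 1 fell, beside 28.9% and 30.8% of all tested genes. The 1 that fell met the filter only through the control libraries. CLU, or clusterin, a chaperone that also blocks the terminal complex, rose from 21.5 ± 2.72 to 226 ± 5.87 CPM (n = 3 per group, SD), with a log2 fold change of 3.39 (SE 0.12; adjusted p = 5.92e-07). THBD, or thrombomodulin, rose 4.36-fold and SUSD4, an inhibitor of the classical route, 1.43-fold, the last a call lost with library totals only (adjusted p = 0.057; 0.0087 to 0.057 over all alternatives). Of 12 receptor genes 6 were tested and 3 rose, ITGAX, a subunit of a receptor for C3 fragments, 4.98-fold from low counts and C5AR1, the C5a receptor, among them; both met the filter only through the knockout libraries, and with the offset 2 of the 6 were called higher and 2 lower. CALR, which encodes the C1q-binding chaperone calreticulin, was 1.18-fold higher (adjusted p = 0.034), lost this call in 8 of 13 alternatives and lay at -0.25 with the offset (adjusted p = 0.0038, range 0.0038 to 0.49 over all alternatives).

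Of 30 other acute phase genes 15, including CRP, HP, FGA, FGB and FGG, had no read in any library and 8 were under the filter. Of the 7 tested 6 rose and 0 fell, beside 28.9% and 30.8% of all tested genes. With the offset 7 were called higher and 0 lower. The median log2 fold change of the 7 was 1.41, beside 2.68 for SAA1 and 2.10 for C3. It includes 2 of the 6, LCN2 and AGT, that met the filter only through the knockout libraries, so the filter itself favoured a rise in these 2. SERPINA1, the antitrypsin gene, rose from 29.1 ± 1.60 to 93.6 ± 5.54 CPM (n = 3 per group, SD), with a log2 fold change of 1.68 (SE 0.10; adjusted p = 7.53e-06). PLAUR, the receptor of the urokinase plasminogen activator, rose 1.77-fold, a log2 fold change of 0.82 that was 0.23 with the offset.

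Genes of the pathways that induce SAA1, C3 and CFB in other settings were mixed. The list also holds inhibitors of these pathways, such as NFKBIA, which rose, and SOCS3, which did not pass. Of 31 tested, 12 rose and 6 fell, while 13 missed the threshold, with a median log2 fold change of 0.22. Of all tested genes 28.9% rose and 30.8% fell. Of the 6 that fell, IL1B met the filter only through the control libraries. RELB, an NF-kB subunit gene, rose from 26.3 ± 1.35 to 73.8 ± 3.50 CPM (n = 3 per group, SD; adjusted p = 1.17e-05), a log2 fold change of 1.49 that was 0.94 with the offset. The cytokine gene LIF and the transcription factor gene IRF1 rose 2.07-fold and 1.66-fold. LIFR, a receptor subunit for LIF, fell 5.27-fold, a log2 fold change of -2.40 that was -1.19 with the offset. With the offset, 13 genes of this list were called higher and 4 lower. IL1RAP, of the interleukin-1 receptor, fell 2.04-fold and the kinase gene JAK2 2.74-fold, both calls lost with the offset (adjusted p = 0.058 and 0.20, the largest over all alternatives of each). STAT3, which carries the interleukin-6 signal, had a log2 fold change of -0.10 (adjusted p = 0.60). Other genes of this route were mixed: without the offset, IL6 and IL6R were among those that rose. The receptor subunit gene IL6ST was among those that fell, and JAK1 did not pass.

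Of 8 genes for reported SAA receptors 5 were tested, with 2 higher and 3 lower, or 2 and 2 with the offset. FPR1 rose 2.77-fold and TLR2 1.56-fold, with log2 fold changes of 1.47 and 0.64 that were 0.94 and 1.13 with the offset. P2RX7, an ATP-gated channel gene, fell from 2.06 ± 0.41 to 0.08 ± 0.07 CPM (n = 3 per group, SD) and met the filter only through the control libraries. TLR4 fell 1.93-fold but lay at 0.25 with the offset (adjusted p = 0.17; 9.01e-06 to 0.17 over all alternatives), and SCARB1 fell 1.39-fold, a call that ended when control library 1 was left out (adjusted p = 0.059; 1.47e-04 to 0.059 over all alternatives). Genes for the GPI anchor that holds CD55 and CD59 were the PIG genes, GPAA1, DPM1, DPM2, DPM3, PGAP1, PGAP2, PGAP3 and MPPE1. Of 28 of these genes tested 14 rose and 7 fell (12 and 5 with the offset), beside 28.9% and 30.8% of all tested genes. Among the PIG genes the calls were mixed: PIGH, PIGL, PIGP, PIGQ, PIGS, PIGT and PIGV rose. PIGA, PIGB, PIGK, PIGN, PIGX and PIGZ fell. Of the genes outside the PIG family, PGAP1 fell and all others rose. PIGQ was 1.82-fold and PIGT 1.65-fold higher, with log2 fold changes of 0.87 and 0.73 that were 0.46 and 0.25 with the offset. PIGA, of the first step, was 2.17-fold lower, at -1.12 and with the offset -0.54, and PIGZ 2.52-fold lower. GPAA1, 1.66-fold higher, and PGAP1, 2.91-fold lower, lost their calls with the offset (adjusted p = 0.071 and 0.19, the largest over all alternatives of each).

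**Figure D4:**
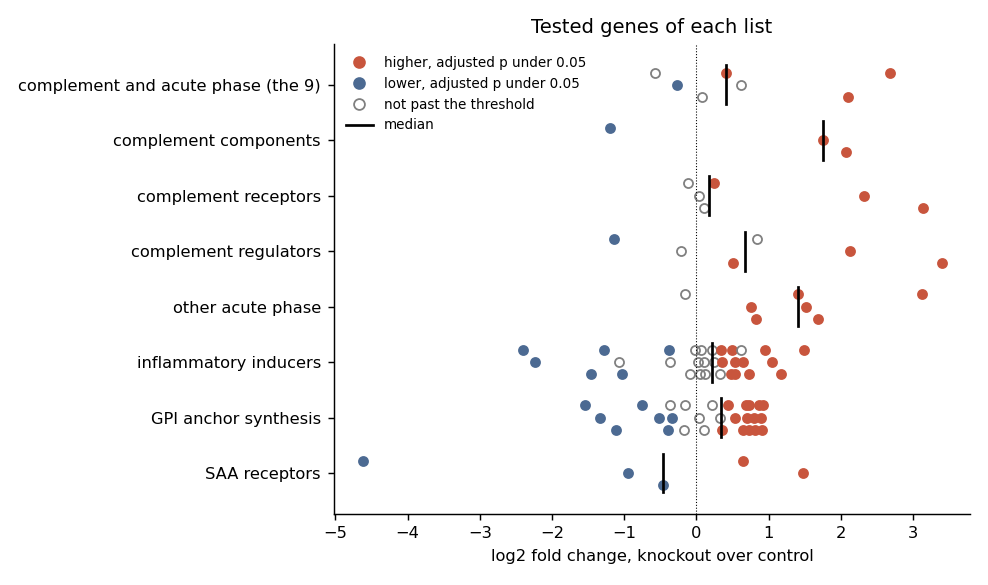
Log2 fold change (knockout over control) of the tested genes of each list; filled points passed an adjusted p of 0.05, open ones did not, and vertical lines are medians. The 9 genes hold 2 of the large rises, SAA1 at 2.68 and C3 at 2.10, among smaller values, and CLU at 3.39 is the highest of the regulators.

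Markers of the labelled line were present, with PAX8, KRT8, KRT18 and VIM at 5263 reads or more in every library, while NDUFA4L2 had 2 to 20 reads. Cells that make much SAA1 and C3 in the body were sought by their markers. Of 8 hepatocyte markers only SERPINA1 was tested, and ALB, APOA1, APOB, TTR and HNF4A had 0 or 1 read per library; the summed level was 27.7 to 30.8 CPM in control and 87.8 to 98.8 CPM in knockout libraries, nearly all of it SERPINA1. Of 9 macrophage markers PTPRC, CD163, LYZ and AIF1 had 0 reads in all libraries, and MRC1, CD14 and ITGAM were under the filter. CSF1R had 185 to 321 reads a library and did not pass, and CD68 rose. The sum was 52.5 to 56.3 CPM in control and 126 to 131 CPM in knockout libraries, mainly CD68. Fibroblast markers summed to 4.60 to 5.08 CPM in control and 1.41 to 2.33 CPM in knockout libraries, with COL3A1 at 0. The part of these marker levels in the members' differences was not tested. In bulk RNA, fewer cells that express a gene and less RNA per cell cannot be told apart.

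Among genes whose mean reached 5 CPM, those whose log2 level over the 6 libraries was most like that of SAA1 were HMOX1 (Pearson r = 0.9996), AP5Z1 (0.9995) and MAT2A (0.9994). Those most like C3 were SLC43A3 (0.9992), SEC14L2 (0.9988) and ZNF689 (0.9984), and those most like CD59 were CDKN2C (0.9919), MCM6 (0.9891) and PDZK1 (0.9824). Such values describe 6 libraries in 2 groups: 1754 of 10314 genes had an r over 0.95 with SAA1, 1073 with C3 and 64 with CD59. HMOX1, like SAA1, was highest in knockout library 2 and lowest in knockout library 1, at 1376 and 875 CPM, while SLC43A3, like C3, was lowest in knockout library 2.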

How the data were processed

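The authors deposited raw read counts per gene symbol, with no normalization, for 6 libraries; each column was matched to its sample by title. Reads were mapped to GRCh38 with HISAT2 and counted with HTSeq, per the labels' series design text, and HISAT2 was version 2.0.4 per the submitters' processing notes. HTSeq's version is not given in the sources used here, nor are its strand setting and annotation.

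Knockout was compared with control with edgeR 4.0.16 (quasi-likelihood test, TMM factors, filterByExpr with a minimum of 10 reads, prior count 0.125 for fold changes), with Benjamini-Hochberg adjustment over all tested genes. SE is the log2 fold change over the root of the F statistic. CPM and RPKM are scaled by the TMM factors, at 1.05 to 1.07 for control and 0.94 to 0.96 for knockout. Positions and lengths come from GENCODE release 44, matched by symbol (34408 symbols directly, 1602 by an older symbol, 18251 not matched). The script was tested on simulated data. Libraries of a group differed by more than sampling noise (chi-square per degree of freedom 3.1 to 74.3). Total counts of 21533615 to 29095133 leave genes with few reads, such as C1R and C1S, imprecise.

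Alternatives were DESeq2 1.42.0, its median-ratio factors, unscaled library totals, a filter either dropped or raised (every library of 1 group over 1 CPM), the replicate number as a block, each library left out in turn, and an offset per library for length and GC content of the canonical transcript (lowess span 0.3, 92.4% of tested genes). This offset also takes out any true group difference that follows either measure. The named genes are PHF8, the 9 members and genes that share reads or position with them. From each list they are up to 3 called genes per direction with the smallest p and a mean of at least 1 CPM. The 3 genes most like each of SAA1, C3 and CD59 are named too. C4A, C8G, MBL2, C5AR1, LCN2, AGT, CP, NFKBIA, SOCS3, STAT3, IL6, IL6R, IL6ST and JAK1 were named after their values were seen. So were marker genes, genes at 0 reads and the GPI anchor genes outside this rule. The members and lists were chosen with earlier results of these data known. Some genes that the naming rule selects are not reported here.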

Additional observations from a re-analysis of the deposited data

How the results depend on the processing

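SAA1 and C3 kept their direction and their call in all 13 alternatives run on each, with log2 fold changes of 2.13 to 2.80 and 1.91 to 2.34. The number of members called higher (3) was 5 with the length and GC offset, and the number called lower (1, CD59) was 0 with that offset and 0 with the replicate block (CD59 adjusted p = 0.068). Leaving out 1 library gave 0 to 1 lower and 2 to 4 higher members. Among the members and the called genes named from the lists, those that turned with the offset were CD59 (log2 fold change 0.46), CALR (-0.25) and TLR4 (0.25). Genes of the lists that were not called could turn too: CP, of the other acute phase genes, lay at -0.15 and was called higher with the offset. Over all tested genes, calls ran from 3153 to 4647 higher and 3584 to 5441 lower, and the share of calls that were higher was 36.7% with library totals only, against 48.4%, with a shift of the median to -0.18; in the other lists together they ran from 35 to 43 higher and 15 to 21 lower. Per canonical length, 2 members changed place in control and 4 in knockout cells. The replicate numbers did not pair the libraries (correlations of deviations of same-numbered libraries from 0.020 to -0.044), and the block changed no other member's call. C1S was not tested under the stricter filter. SAA2 and CFB, with 3 to 17 and 0 to 6 reads a library, are limited by low counts, and the change that could have been detected in them was not measured. For SAA2, reads that also match SAA1 or SAA2-SAA4 may have gone uncounted, which summing these genes cannot recover.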
